A study of Homo sapiens with 6 samples.

Results

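The Hippo pathway and the genes switched on by its effectors YAP1 and WWTR1 were followed in RNA sequencing counts of HCT116 cells, an established human colorectal cancer line. The 37 genes were taken by symbol from a list of 20 upstream components and 17 target genes, out of 56638 symbols counted; CYR61 is the older symbol of CCN1, and CTGF that of CCN2. The groups were HCT116 with ZFP90 knocked out with single guide RNAs against exon 3 (3 libraries) and HCT116 controls (3 libraries), both at passage 16 to 19. The labels do not say whether the knockout was a pool or a clone, what the controls received, how dense the cultures were, or whether replicates were separate cultures, and the p-values therefore reflect library-to-library spread that may be purely technical.

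In the Hippo pathway, upstream kinases activate LATS1 and LATS2, which phosphorylate the coactivators YAP1 and WWTR1 (also called TAZ) and keep them out of the nucleus. Unphosphorylated coactivator enters the nucleus and binds TEAD transcription factors at the promoters and enhancers of target genes. Some targets, such as LATS2 and AMOTL2, act back on the pathway as inhibitors. In the intestine YAP1 is best known for its part in regeneration of the epithelium and in tumours.

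ZFP90 RNA itself was higher in the libraries labelled knockout, with 86.9, 80.5 and 89.8 CPM (reads scaled to library size), against 47.5, 47.4 and 43.1 CPM in the controls (log2 fold change 0.90, SE 0.066, adjusted p = 5.1e-05). A count per gene cannot tell an edited transcript from an intact one, so the group is called by its label throughout. Each library held 13424356 to 17012910 reads in genes. On chromosomes 6 to 9, X and M control replicate 2 was short of reads relative to the mean of the other controls. Chromosome medians there were between 52.8% and 87.6% of that level. Of the members, 8 lie on chromosomes 6, 7 or 8 and 0 on X. Values without that library are given for tested members there and for others that moved by over 1.5 times and lay beyond 0.1 from 0. Of 12 listed markers of colorectal epithelium, 8 passed the filter on low counts; KRT20 was higher (log2 fold change 2.47, SE 0.25, adjusted p = 0.000303) and KRT18 was lower (log2 fold change -0.23, SE 0.068, adjusted p = 0.0394). The KRT18 call was lost with replicate 2 or 3 labelled knockout or control replicate 3 left out (edgeR adjusted p = 0.122, 0.132 and 0.0801), with DESeq2 (0.0553) and with the replicate number as a block (0.0693). CDX1 had 0 reads in all 6 libraries, and VIL1, LGALS4 and GPA33 stayed under the filter. Summed over the list, epithelial markers stood at 2692 to 2817 CPM in libraries labelled knockout and at 2715 to 2848 CPM in controls. Most of that was KRT8, KRT19 and EPCAM, with KRT8 averaging 1394 CPM in libraries labelled knockout and 1318 CPM in controls. The sum therefore says little about scarcer markers such as KRT20. Fibroblast markers, of which 4 of 7 passed the filter, summed to 75.7 to 96.8 CPM in libraries labelled knockout and to 74.9 to 95.6 CPM in controls, most of it COL1A1. Endothelial markers, of which 2 of 4 passed, summed to 2.23 to 3.08 CPM in libraries labelled knockout and to 2.04 to 2.39 CPM in controls, and PECAM1 had 0 reads. None of 6 leukocyte markers passed; they summed to 1.18 to 1.45 CPM in libraries labelled knockout and to 1.19 to 1.27 CPM in controls, and CD3E had 0 reads. In such bulk RNA, fewer cells of a type and less RNA per cell cannot be told apart, and the part of these markers in the results was not tested.

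Across the list, 11 members fell and 0 rose, 22 were not called and 4 had too few reads to test. Called genes passed a Benjamini-Hochberg adjusted p of 0.05 over all 16369 genes tested by edgeR; at an unadjusted p under 0.05, 12 members were lower and 0 higher, against 17.8% and 17.1% of all genes, and DESeq2 and limma-voom also called 0 higher, where they called 7.93% and 10.1% of all genes higher. Among all genes tested, 11.4% were called lower and 9.73% higher, or 14.3% and 6.02% when libraries were scaled by size alone. The lower calls comprised 5 of 20 upstream components and 6 of 13 tested targets. CTGF passed the filter on low counts only through the controls, and a gene that passed in this way had to be lower; 5 of the other 12 tested targets were called. The median log2 fold change was -0.22 over tested targets, -0.042 over upstream components and 0.0084 over all genes. In 12 of the 33 tested members every library labelled knockout lay below every control, and in 0 every one lay above; 20.3% and 20.9% of all genes tested did so.

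**Figure D1:**
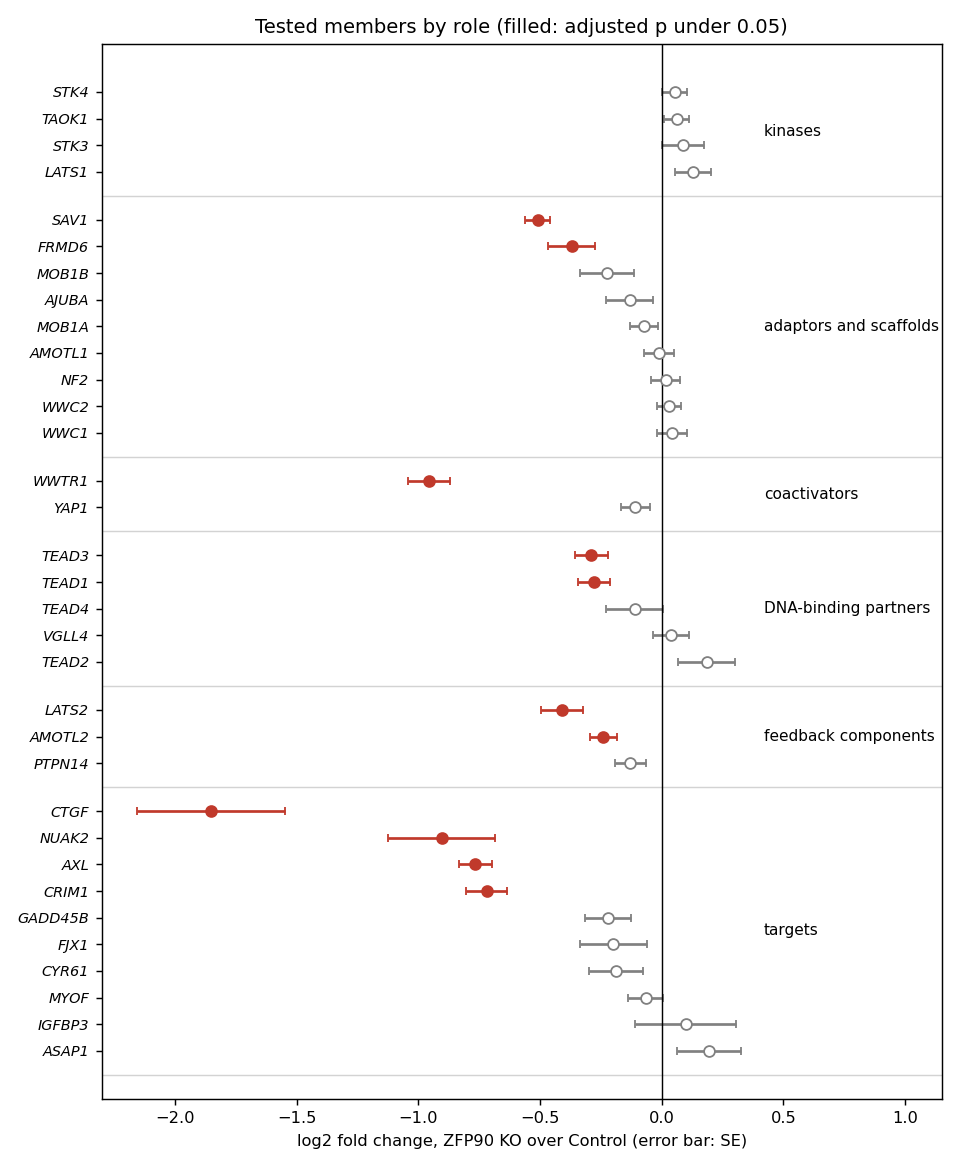
Log2 fold change of the 33 tested members, libraries labelled ZFP90 knockout over controls, with SE as error bars, grouped by role; filled points have an adjusted p under 0.05. Every filled point lies left of 0, from -0.24 for AMOTL2 to -1.85 for CTGF, and none of STK3, STK4, TAOK1 and LATS1, grouped as kinases, is filled.

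WWTR1 had the lowest fold change of the 20 upstream components. It measured 40.4, 51.8 and 45.6 CPM in the libraries labelled knockout, against 86.96, 93.8 and 86.01 CPM in the controls (log2 fold change -0.96, SE 0.088, adjusted p = 0.000185). The highest library labelled knockout lay well under the lowest control, and the fitted level was 51.6% of the control level. WWTR1 is annotated on chromosome 3, bases 149517235 to 149736714, minus strand (GRCh38, GENCODE release 29). Its antisense neighbour WWTR1-AS1, which overlaps it, had 2 to 4 reads in every library.

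YAP1, the paralogue of WWTR1, had 136, 147 and 147 CPM in the libraries labelled knockout and 155, 163 and 144 CPM in the controls, and the groups overlapped (log2 fold change -0.11, SE 0.06, adjusted p = 0.236; log2 fold change -0.066 without control replicate 2). Levels of different genes were set side by side as CPM per kb of annotated exon. On that scale YAP1 averaged 22.7 ± 1.01 in libraries labelled knockout and 24.5 ± 1.49 in controls, and WWTR1 averaged 5.46 ± 0.676 in libraries labelled knockout and 10.6 ± 0.508 in controls (SD, n = 3 each). YAP1 was the more abundant coactivator in every library. The share of WWTR1 in the sum of both, which does not depend on how libraries are scaled, was 18.2%, 20.9% and 18.9% in libraries labelled knockout, against 29.6%, 30.1% and 30.8% in controls (two-sided exact permutation test, p = 0.1, the smallest that 3 against 3 allows). This ratio was formed after the values of both genes had been seen. Together the coactivators summed to 28.2 ± 1.63 CPM per kb in libraries labelled knockout and 35.05 ± 1.95 in controls.

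TEAD1 to TEAD4 are the DNA-binding partners of both coactivators, and recognise the same core motif. TEAD1 had 112, 112 and 130.3 CPM in libraries labelled knockout, against 145, 144 and 141 CPM in controls (log2 fold change -0.28, SE 0.065, adjusted p = 0.0177). TEAD3 had 29.2, 30.6 and 28.3 CPM in libraries labelled knockout, against 35.98, 34.4 and 37.3 CPM in controls (log2 fold change -0.29, SE 0.067, adjusted p = 0.0171). TEAD3 lies on chromosome 6 and stood at -0.32 on the log2 scale with control replicate 2 left out. Neither gene's groups overlapped, and the fitted levels were 82.4% and 81.8% of the control level. TEAD1 was not called without replicate 1 or 2 labelled knockout or control replicate 1 (edgeR adjusted p = 0.0802, 0.0624 and 0.0572), and TEAD3 without replicate 1 or 3 labelled knockout or control replicate 1 or 3 (0.0658, 0.0706, 0.0558 and 0.0565). TEAD2 had 23.3, 19.1 and 26.05 CPM in libraries labelled knockout, against 20.5, 21.4 and 18.4 CPM in controls (log2 fold change 0.18, SE 0.12, adjusted p = 0.301). TEAD4 had 10.5, 12.3 and 13.9 CPM in libraries labelled knockout, against 12.7, 13.7 and 13.3 CPM in controls (log2 fold change -0.11, SE 0.12, adjusted p = 0.534). The groups overlapped for both. TEAD2 overlaps CD37 on the other strand, which had 279 to 409 reads per library. Per kb, TEAD1 was the most abundant TEAD gene and TEAD4 the least abundant in both groups' means. VGLL4, which competes with YAP1 for TEADs and overlaps ATG7 on the other strand, averaged 33.7 ± 2.22 CPM in libraries labelled knockout and 32.9 ± 1.71 CPM in controls (log2 fold change 0.038, SE 0.075, adjusted p = 0.758).

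**Figure D2:**
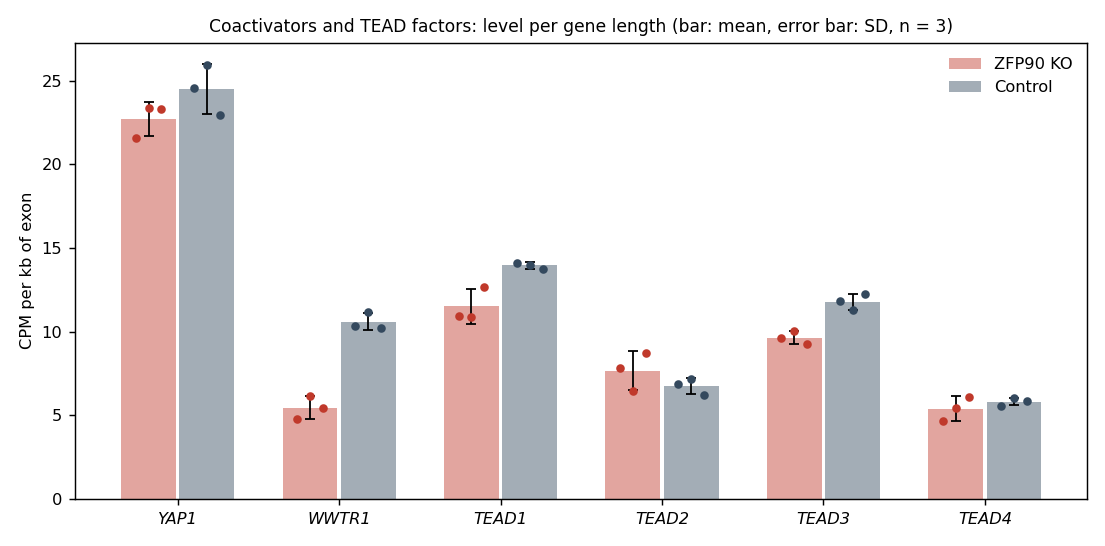
CPM per kb of annotated exon for the coactivators YAP1 and WWTR1 and for TEAD1 to TEAD4; points are libraries, bars group means and error bars SD (n = 3 each), with libraries labelled ZFP90 knockout left of controls. WWTR1 averages 5.46 in libraries labelled knockout and 10.6 in controls, while the YAP1 points of the groups overlap.

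Of the kinases STK3, STK4, TAOK1 and LATS1, none was called by edgeR, DESeq2 or limma-voom, and 0 of 4 had an unadjusted p under 0.05 with edgeR. LATS2, a kinase that is also a target, is described with the feedback components. STK3 and STK4, which phosphorylate LATS1 and LATS2, overlapped between groups. STK3 averaged 56.1 ± 4.38 CPM in libraries labelled knockout and 52.7 ± 4.98 CPM in controls (log2 fold change 0.087, SE 0.085, adjusted p = 0.501), and STK4 averaged 113 ± 2.68 CPM in libraries labelled knockout and 108 ± 4.84 CPM in controls (log2 fold change 0.054, SE 0.052, adjusted p = 0.5). TAOK1, which activates STK3 and STK4, had 229.99, 228 and 229.98 CPM in libraries labelled knockout and 235, 214 and 211 CPM in controls (log2 fold change 0.061, SE 0.053, adjusted p = 0.449). LATS1 had 64.04, 68.7 and 65.3 CPM in libraries labelled knockout, against 64.1, 53.96 and 62.9 CPM in controls (log2 fold change 0.13, SE 0.074, adjusted p = 0.251); it lies on chromosome 6, and without control replicate 2 its log2 fold change was 0.055. Without that library STK3, on chromosome 8, had a log2 fold change of 0.022, and it turned negative when control replicate 2 was corrected along the genome. Scaling by library size alone, which moved the median of all genes by -0.0665, put STK4 and TAOK1 below 0.

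SAV1 had the lowest fold change among the 9 adaptors and scaffolds. It encodes the scaffold that binds STK3 and STK4 and brings them to LATS kinases. It had 46.5, 47.6 and 47.8 CPM in libraries labelled knockout, against 65.9, 68.1 and 67.9 CPM in controls (log2 fold change -0.51, SE 0.052, adjusted p = 0.000313), with narrow groups that did not overlap. SAV1 lies on chromosome 14, bases 50632058 to 50668331, minus strand, where ATL1 overlaps it on the other strand with 31 to 43 reads per library. FRMD6, a membrane-associated FERM-domain protein, had 15.2, 14.7 and 15.97 CPM in libraries labelled knockout, against 20.1, 21.5 and 17.5 CPM in controls (log2 fold change -0.37, SE 0.096, adjusted p = 0.0272), also without overlap. That call was not made without any 1 of the libraries labelled knockout or without control replicate 1 (edgeR adjusted p from 0.065 to 0.0931).

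The other 7 adaptors were not called, with log2 fold changes from -0.22 for MOB1B to 0.043 for WWC1. MOB1A and MOB1B, near-identical activators of LATS kinases whose reads may be shared, had 239 ± 16.7 and 83.8 ± 15.2 CPM in libraries labelled knockout and 252 ± 5.83 and 97.8 ± 3.41 CPM in controls (SD, n = 3 each). MOB1B was called lower when replicate 2 labelled knockout was left out and when no filter on low counts was used (edgeR adjusted p = 0.0318 and 0.0313). NF2, or merlin, which recruits LATS kinases to the membrane, averaged 55.5 ± 2.48 CPM in libraries labelled knockout and 54.9 ± 1.86 CPM in controls (log2 fold change 0.016, SE 0.059, adjusted p = 0.879). Its partner WWC1, or KIBRA, averaged 77.6 ± 4.67 CPM in libraries labelled knockout and 75.3 ± 2.72 CPM in controls, and WWC2 averaged 101 ± 3.43 CPM in libraries labelled knockout and 99.4 ± 1.37 CPM in controls. AMOTL1, an angiomotin that binds YAP1, averaged 55.5 ± 2.39 CPM in libraries labelled knockout and 55.9 ± 2.62 CPM in controls. AJUBA, a LIM protein that inhibits LATS kinases, averaged 49.5 ± 6.47 CPM in libraries labelled knockout and 54.3 ± 3.71 CPM in controls (log2 fold change -0.13, SE 0.096, adjusted p = 0.366). Each of these 7 adaptors overlapped between the groups.

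The feedback components are targets of YAP1 and WWTR1 that restrain the pathway's output. LATS2 had 18.97, 20.4 and 17.9 CPM in libraries labelled knockout, against 24.9, 27.1 and 23.8 CPM in controls (log2 fold change -0.41, SE 0.085, adjusted p = 0.0106), and the groups did not overlap. Without replicate 3 labelled knockout LATS2 was just over the threshold (edgeR adjusted p = 0.0511). AMOTL2, an angiomotin that holds YAP1 in the cytoplasm, had 824, 705 and 782 reads in libraries labelled knockout and 929, 905 and 824 reads in controls, or 50.3 ± 0.752 CPM in libraries labelled knockout and 59.5 ± 2.09 CPM in controls (SD, n = 3 each; log2 fold change -0.24, SE 0.055, adjusted p = 0.0158). All libraries labelled knockout lay below the controls, but by little, and AMOTL2 was not called without replicate 1 labelled knockout or control replicate 3 (edgeR adjusted p = 0.0667 and 0.0557). PTPN14, a phosphatase that binds YAP1, had 53.9, 57.4 and 60.1 CPM in libraries labelled knockout, against 64.7, 59.2 and 63.5 CPM in controls (log2 fold change -0.13, SE 0.064, adjusted p = 0.186), with overlap. LATS1 and LATS2 together summed to 11.1 ± 0.471 CPM per kb in libraries labelled knockout and 11.5 ± 0.394 in controls (SD, n = 3 each; two-sided exact permutation test, p = 0.3, where 0.1 is the smallest possible).

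CTGF and CYR61 are the secreted matricellular proteins most often read as YAP1 and WWTR1 output. CTGF had few reads, with 7, 8 and 10 reads (0.423, 0.567 and 0.654 CPM) in libraries labelled knockout, against 39, 22 and 28 reads (2.41, 1.45 and 2.09 CPM) in controls (log2 fold change -1.85, SE 0.3, adjusted p = 0.00373). With control replicate 2, the lowest control, left out, CTGF stood at -2.04 on the log2 scale. The groups of CYR61 overlapped, with 22.6, 26.1 and 28.3 CPM in libraries labelled knockout and 26.3, 33.04 and 28.4 CPM in controls (log2 fold change -0.19, SE 0.11, adjusted p = 0.261; log2 fold change -0.091 without control replicate 2). Per kb of exon, CYR61 averaged 10.5 ± 1.18 CPM in libraries labelled knockout and 11.9 ± 1.4 in controls, and CTGF averaged 0.234 ± 0.05 CPM in libraries labelled knockout and 0.847 ± 0.209 in controls (SD, n = 3 each). A difference between CTGF and CYR61 in their fold change was not tested.

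The CTGF promoter is a classical TEAD-bound promoter and is shown with windows of other members called lower that hold the core TEAD motif outside annotated exons. The motif was searched as GGAATG on either strand, CATTCC being its reverse complement, in the 250 bases before each RefSeq start on GRCh38.p14. Sequences run 5′ to 3′ on the strand of the gene, leave out exon bases of GENCODE release 29, and carry the motif in capitals. CTGF is at chr6:131951374-131951622 (minus strand), NUAK2 at chr1:205321792-205321995 (minus strand), and AXL at chr19:41226505-41226754 (plus strand), the last before a downstream start within the gene; the window at the upstream AXL start held 0 copies.
CTGF: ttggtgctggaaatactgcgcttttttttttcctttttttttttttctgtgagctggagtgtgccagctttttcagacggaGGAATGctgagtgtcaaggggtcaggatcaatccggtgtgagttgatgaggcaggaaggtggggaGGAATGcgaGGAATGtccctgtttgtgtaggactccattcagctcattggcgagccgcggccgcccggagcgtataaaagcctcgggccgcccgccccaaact
NUAK2: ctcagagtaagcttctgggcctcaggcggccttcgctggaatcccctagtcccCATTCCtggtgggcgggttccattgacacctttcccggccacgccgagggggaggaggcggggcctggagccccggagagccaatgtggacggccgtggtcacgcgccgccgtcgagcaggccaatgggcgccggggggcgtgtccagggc
AXL: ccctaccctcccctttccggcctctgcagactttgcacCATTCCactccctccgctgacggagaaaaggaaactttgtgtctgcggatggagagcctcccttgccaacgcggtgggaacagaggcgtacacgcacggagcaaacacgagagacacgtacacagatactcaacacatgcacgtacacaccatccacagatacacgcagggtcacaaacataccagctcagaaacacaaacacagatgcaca
The CTGF window held 3 copies, starting 169, 104 and 95 bases before the start; 0.0826% of the 35116 windows in the table held 3 or more. Copies started 197 bases before the start of NUAK2, with a further one 18 bases before it inside an annotated exon and not shown, and 212 bases before the AXL start. At least 1 copy was in 11.9% of all windows and in 10 of the 43 windows of the 30 members matched (23.3%). The members include known targets of the TEAD-bound coactivators, so the share among them is not an independent test. Windows of the same gene can overlap, as the NF2 windows do. By gene, 4 of the 9 matched members called lower had a copy (AMOTL2 being the fourth), as did 6 of the other 21. Those others include ANKRD1, FOXF2 and RBMS3, which had too few reads to test, and ANKRD1 and FOXF2 held a copy. STK3, TEAD1, TEAD4, CYR61, CRIM1, ASAP1 and DLC1 were not matched. A match describes letters in a window and not binding.

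AXL, the receptor tyrosine kinase for GAS6, was lower in all libraries labelled knockout than in any control. It had 76.2, 84.5 and 80.04 CPM in libraries labelled knockout, against 132, 147 and 129.6 CPM in controls (log2 fold change -0.77, SE 0.066, adjusted p = 0.000131). CRIM1, a transmembrane protein that binds bone morphogenetic proteins, had 28.8, 26.3 and 32.7 CPM in libraries labelled knockout, against 46.7, 48.8 and 49.1 CPM in controls (log2 fold change -0.72, SE 0.084, adjusted p = 0.000646). Both stood near 60% of the control level, at 58.8% and 60.8%, and neither gene's groups overlapped. NUAK2, a kinase related to AMPK, had few reads, with 30, 27 and 18 reads in libraries labelled knockout and 49, 42 and 46 reads in controls (log2 fold change -0.90, SE 0.22, adjusted p = 0.0205). NUAK2 was not called without replicate 1 or 3 labelled knockout or control replicate 1 or 3 (edgeR adjusted p from 0.0559 to 0.0675). AXL lies on chromosome 19, bases 41219203 to 41261766, plus strand, and CRIM1 on chromosome 2, bases 36355926 to 36551135, plus strand.

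**Figure D3:**
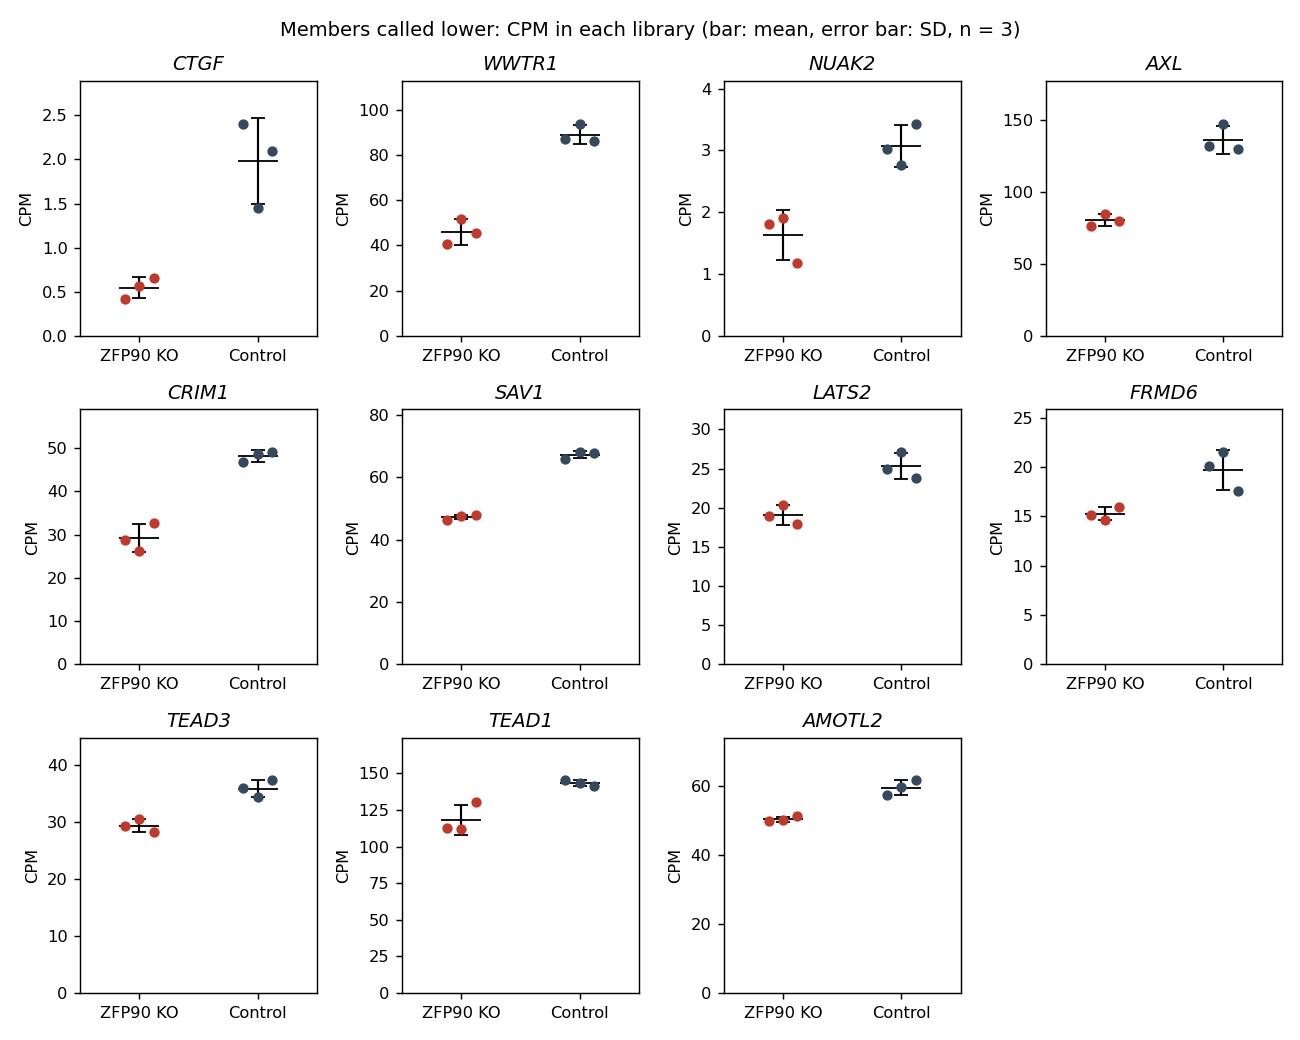
CPM in each library for the 11 members called lower; points are libraries, horizontal bars group means and error bars SD (n = 3 each), with libraries labelled ZFP90 knockout left of controls and each axis starting at 0. In every panel the highest library labelled knockout lies below the lowest control; CTGF stays under 2.5 CPM throughout.

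Of the targets other than CYR61 and the feedback components, 5 were tested and not called. MYOF, a membrane-repair protein and the most abundant member per kb of exon, had 1051, 924 and 1094 CPM in libraries labelled knockout and 1054, 1039 and 1120.1 CPM in controls (log2 fold change -0.066, SE 0.071, adjusted p = 0.549). GADD45B, a stress-induced gene, had 28.6, 29.6 and 29.3 CPM in libraries labelled knockout, against 31.9, 39.2 and 30.8 CPM in controls (log2 fold change -0.22, SE 0.096, adjusted p = 0.137); its groups did not overlap, and without control replicate 2 the log2 fold change was -0.11. FJX1 averaged 9.4 ± 1.58 CPM in libraries labelled knockout and 10.8 ± 0.896 CPM in controls (log2 fold change -0.20, SE 0.14, adjusted p = 0.345). ASAP1, a GTPase-activating protein for Arf on chromosome 8, averaged 81.5 ± 5.4 CPM in libraries labelled knockout and 71.2 ± 14.3 CPM in controls (log2 fold change 0.20, SE 0.13, adjusted p = 0.324), with a log2 fold change of 0.04 without control replicate 2. IGFBP3, a carrier of insulin-like growth factors on chromosome 7, averaged 7.13 ± 1.59 CPM in libraries labelled knockout and 6.65 ± 1.44 CPM in controls (log2 fold change 0.10, SE 0.21, adjusted p = 0.776), with -0.071 without that library.

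The remaining 4 targets were at or near the floor of detection. ANKRD1, a widely used YAP1 reporter gene, had 3, 4 and 5 reads in libraries labelled knockout and 5, 0 and 7 reads in controls. FOXF2 had 2, 0 and 1 reads in libraries labelled knockout and 2, 2 and 5 in controls. RBMS3 had 0, 1 and 2 reads in libraries labelled knockout and 0, 1 and 1 in controls, and DLC1 had 0, 0 and 2 reads in libraries labelled knockout and 2, 0 and 3 in controls. In these libraries 3 reads correspond to between 0.176 and 0.224 CPM before TMM scaling, and a decrease or a small difference in these genes was not detectable at this depth.

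Other genes described as YAP1 or WWTR1 targets came from a list of 22 that does not include the members. This list was chosen with earlier results of these data known, so it was not an independent set. It gave 10 lower and 1 higher of 20 tested, against 11.4% and 9.73% of all genes, with a median log2 fold change of -0.34. Tissue factor, F3, had 63.6, 62.6 and 61.3 CPM in libraries labelled knockout, against 208, 201 and 239.7 CPM in controls (log2 fold change -1.79, SE 0.072, adjusted p = 3.18e-06). ARHGAP29, a GTPase-activating protein, had 187, 196 and 209.6 CPM in libraries labelled knockout, against 588, 594 and 595 CPM in controls (log2 fold change -1.58, SE 0.054, adjusted p = 1.7e-06). The groups did not overlap for F3 or ARHGAP29. NT5E, an ecto-nucleotidase, fell by 0.97 on the log2 scale, the endocytic adaptor DAB2 by 0.58 and the guanine nucleotide exchange factor ARHGEF17 by 0.58. DAB2 was not called without replicate 1 labelled knockout or control replicate 1 (edgeR adjusted p = 0.0618 and 0.0515). Without replicate 1 labelled knockout 6 of these targets were called lower, against 6.17% of all genes. Over the libraries left out in turn 0 to 2 were called higher, against 4.55% to 13.5% of all genes.

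Further Hippo regulators, from a list of 43, gave 6 lower and 3 higher of 40 tested, with a median of 0.012. These shares of 15% and 7.5% were near those of all genes, 11.4% and 9.73%. MPP5, the PALS1 scaffold of the Crumbs polarity complex, had 39.2, 45.2 and 42.1 CPM in libraries labelled knockout, against 65.1, 62.3 and 65.5 CPM in controls (log2 fold change -0.61, SE 0.066, adjusted p = 0.000448). The atypical cadherins DCHS1 and FAT4 bind each other across cell contacts. DCHS1 had 37, 35 and 30 reads in libraries labelled knockout, against 13, 19 and 14 reads in controls (log2 fold change 1.11, SE 0.23, adjusted p = 0.0117). FAT4 had 17, 7 and 18 reads in libraries labelled knockout, against 37, 21 and 29 reads in controls (log2 fold change -1.08, SE 0.33, adjusted p = 0.0468). DCHS1 was not called without control replicate 1 (edgeR adjusted p = 0.0515), and FAT4 with any 1 library but control replicate 2 left out (0.0727 to 0.14), with DESeq2 (0.0546) or with limma-voom (0.0547). The polarity protein SCRIB rose by 0.37, the cadherin FAT1 fell by 0.29 and STRN, a phosphatase scaffold, by 0.26 on the log2 scale. SCRIB lies on chromosome 8, and its log2 fold change was 0.25 without control replicate 2 and 0.24 with that library corrected along the genome. SCRIB was not called without any 1 library labelled knockout (edgeR adjusted p from 0.0806 to 0.0926), nor FAT1 with any 1 library but control replicate 2 left out (0.0656 to 0.119), nor STRN without replicate 1 or 3 labelled knockout or control replicate 1 (0.0555 to 0.0689). The counts of lower calls were 1 without replicate 1 or 3 labelled knockout, 2 without control replicate 1, 4 without replicate 2 labelled knockout or control replicate 3, and 8 without control replicate 2; those of higher calls ran from 1 to 5.

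**Figure D4:**
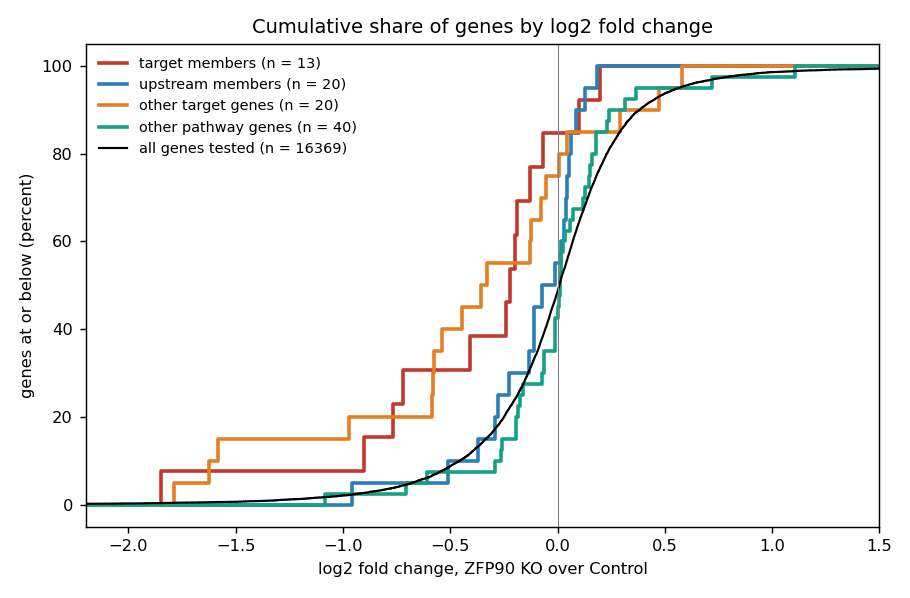
Cumulative percent of genes by log2 fold change, libraries labelled ZFP90 knockout over controls, for tested target members, upstream members, other target genes, other pathway genes and all genes tested. The 4 lists were chosen with earlier results of these data known. At their medians the curves of both target lists lie left of that of all genes (-0.22 and -0.34 against 0.0084). Medians of the upstream members and other pathway genes lie closer to it (-0.042 and 0.012). Of the tested upstream members 25% were called lower and 0% higher, against 11.4% and 9.73% of all genes.

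Upstream calls were fewer without some libraries: 2 were lower without replicate 1 labelled knockout or without control replicate 1, 3 without replicate 3 labelled knockout, and 4 or 5 without the others. Targets numbered 4 to 6 lower, with 4 without replicate 1 or 3 labelled knockout or control replicate 3. WWTR1, SAV1, AXL, CRIM1 and CTGF were called lower in every setting that gave a value, 5 of the 11 called members. For CTGF, which passed the default filter on low counts only through the controls, the direction was fixed in advance with that filter. With a library left out, the share of all genes called lower was 6.17%, 8.4% and 6.79% without replicates 1, 2 and 3 labelled knockout and 7.44%, 14.1% and 8.41% without control replicates 1, 2 and 3. The share called higher was 4.55%, 6.51% and 4.79% without replicates 1, 2 and 3 labelled knockout and 5.63%, 13.5% and 7.03% without control replicates 1, 2 and 3.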

How the data were processed

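RNA sequencing gave 3 libraries labelled ZFP90 knockout and 3 control libraries, grouped by their titles. Per the labels' protocols, 1 µg of total RNA went into each Illumina TruSeq library. Each deposited file lists whole-number read counts by gene symbol; per the submitters' processing notes TopHat2 2.0.11 and HTSeq were used with hg19 and GRCh37. The strand setting is not given in the sources used here, so reads of overlapping genes cannot be told apart. The 5 summary lines, 31.7% to 32.4% of listed reads, were left out.

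Counts were tested with edgeR 4.0.16 (R 4.3.3; quasi-likelihood, TMM, filterByExpr with minimum count 10 and total 15), which kept 16369 genes; Benjamini-Hochberg adjusted p under 0.05 made a call. CPM uses TMM-scaled library sizes, and fold changes are libraries labelled knockout over controls. Exon lengths and positions are from GENCODE release 29 on GRCh38, another build than that of the counts, matched by symbol, and promoters are from RefSeq. Floors of 3 reads cover counting error only. The test was checked on simulated data. The replicate number was tried as a block because groups share numbers, but nothing in the labels says that it pairs samples. Also tried were DESeq2 1.42.0, limma-voom (limma 3.58.1), 3 other scalings, 2 other filters, the block, each library left out, and control replicate 2 corrected by a running median over 51 genes. No replicate pair agreed within sampling noise. Chi-square per degree of freedom was 2.19 to 3.95 for pairs without control replicate 2, and 19.8 and 19.6 for its pairs with control replicates 1 and 3. Members and lists were chosen with earlier results of these data known. All members are accounted for; of the further lists, up to 6 called genes with the largest change are named, except 1 that is not reported here.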

Additional observations from a re-analysis of the deposited data

How the results depend on the processing

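Of 33 tested members, 5 of the 11 called lower (WWTR1, SAV1, AXL, CRIM1 and CTGF) were called in every alternative with a value; the other 6 lost the call only when a library was left out. CTGF passed the default filter only through the controls and had to be lower with it, so its repeated call is no independent support. CTGF and NUAK2 had no value with a filter at a mean of 50 reads. Over all members and alternatives, 456 of 493 values kept their sign and side of the threshold, 18 lost the call, 2 gained it and 17 changed sign, of which 0 were called. These were NF2 with upper quartile scaling (-0.0069). With library size alone, which moved the median of all genes by -0.0665, they were NF2 (-0.052), STK4 (-0.013), TAOK1 (-0.0049), WWC1 (-0.024), WWC2 (-0.038) and VGLL4 (-0.030). With control replicate 2 corrected they were STK3 (-0.044) and AMOTL1 (0.0093). With a library left out they were NF2 (-0.016 without replicate 1 labelled knockout and -0.0046 without control replicate 3), WWC2 (-0.00057), MYOF (0.00045) and IGFBP3 (-0.051) without replicate 2 labelled knockout, AMOTL1 without replicate 3 labelled knockout (0.022) or control replicate 2 (0.027), and IGFBP3 (-0.071) without control replicate 2. Over the libraries left out, these genes ranged as NF2 (-0.016 to 0.048), WWC2 (-0.00057 to 0.045), AMOTL1 (-0.047 to 0.027), MYOF (-0.12 to 0.00045) and IGFBP3 (-0.071 to 0.26).

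With 1 library left out at a time, upstream components numbered 2 to 5 lower and 0 higher, targets 4 to 6 lower and 0 higher, further regulators 1 to 8 lower and 1 to 5 higher, other targets 6 to 11 lower and 0 to 2 higher, and all genes 1025 to 2361 lower and 756 to 2261 higher. Library size alone called 986 genes higher and 0 other targets higher, and control replicate 2 corrected along the genome called 2446 genes, 5 further regulators and 2 other targets higher; 2 other targets were also higher with DESeq2 and with no filter. The cause was not tested.

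With the replicate number as a block, 1623 genes were higher and 1840 lower, against 1593 and 1861, with 5 upstream components and 6 targets lower as without it. Correlations of deviations between same-numbered libraries were 0.0657, 0.167 and 0.122, so the numbers were not taken as pairing; each library did correlate best with its own number, a hint from the data only. ANKRD1, FOXF2, RBMS3 and DLC1 had at most 7 reads in any library, too few to test at this depth.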
